A study of Mus musculus with 4 samples.

Results

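Late cartilage differentiation was read from 10 genes that mark hypertrophic or mineralizing chondrocytes: Col10a1, Ihh, Pth1r, Ibsp, Spp1, Alpl, Phospho1, Panx3, Mef2c and Sp7. Members were taken by name and then matched to the array through the RefSeq transcript accession of each probe. All 10 were found, on 11 probes with 1 spot each, among 37042 genes and unnamed transcripts kept on the array. Primary chondrocytes came from 6-day-old littermates on a C57BL/6J background and were cultured for 3 days with 10 ng ml-1 TNF or with none. In the paper's culture methods, cells from mice of this age are articular chondrocytes. Both genotypes carried the floxed alleles of Rela, which encodes the p65 subunit of NF-kB. Control mice were Rela fl/fl, called control here, and conditional knockout mice (cKO) were Prrx1-Cre; Rela fl/fl, in which the Prrx1 promoter drives Cre in undifferentiated limb mesenchyme, before cartilage forms. Arrays of the latter are called cKO-labelled, since the signal of Rela was not lower on them. Each of the 4 combinations of genotype and treatment was hybridised to 1 array, so there was no replicate check, no test between conditions was run, and the number of arrays limits the precision of every difference given here.

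In the growth plate, chondrocytes stop dividing, enlarge, replace type II by type X collagen and finally mineralize their matrix. Ihh from prehypertrophic cells and PTHrP, acting through its receptor Pth1r, form the feedback loop that sets when cells leave the proliferating pool. Mineral is laid down when tissue-nonspecific alkaline phosphatase (Alpl) and Phospho1 supply phosphate, and acidic phosphoproteins such as Ibsp and Spp1 bind the crystals. NF-kB is known as the main transcriptional route of TNF in cartilage cells.

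Signal is given as processed intensity over the 75th percentile of the same array, which was between 590 and 634 intensity units. Differences are on the log2 scale, and a probe was called well above background by the image software. The technical spread of a difference, from probes printed 10 times per array, was 0.09 for probes with a mean signal of 0.250 or more (116 probes) and 0.28 for dimmer ones (7 probes); Ihh, Mef2c, Sp7 and Phospho1 fell in the dim class. This spread covers spot-to-spot error within an array and leaves out the variation between cultures, mice and labelling reactions.

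Between 50.9% and 58.1% of probes were well above background, no probe was saturated, and all arrays sat on 1 slide. Bright patches held 1.04% to 10.7% of spots per array, and Phospho1 on the control array without TNF was the only spot of the members to lie in one. The signal of Rela was 28.3 and 34.7 on the control arrays without and with TNF and 33.9 and 40.2 on those labelled cKO, and did not show the stated deletion. Where the probe lies relative to the deleted part is not given in the sources used here. Xist, the RNA that silences an X chromosome, passed the background call on the control arrays alone (0.715 and 0.752, against 0.0103 and 0.00796 on the cKO-labelled arrays), and the Y-linked Eif2s3y was 1.81 higher without TNF and 1.83 higher with TNF on the cKO-labelled arrays. Sex and genotype therefore cannot be told apart in these 4 arrays.

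The regulatory sequence of 3 members is shown first, because Col10a1 and Ibsp had the largest genotype differences among members well above background on all 4 arrays and Spp1 was the 1 member over 1.5-fold higher with TNF in both genotypes. The bases are the 250 before the start of transcription, read in the direction of the gene from RefSeq on GRCm38.p6, with motif matches in capitals.

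Col10a1 (chr10:34389731-34389980, plus strand): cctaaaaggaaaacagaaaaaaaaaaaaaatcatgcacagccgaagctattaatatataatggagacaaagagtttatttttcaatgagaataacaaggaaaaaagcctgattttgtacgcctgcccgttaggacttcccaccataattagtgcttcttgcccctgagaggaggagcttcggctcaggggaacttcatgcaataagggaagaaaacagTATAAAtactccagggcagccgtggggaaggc
Ibsp (chr5:104299037-104299286, plus strand): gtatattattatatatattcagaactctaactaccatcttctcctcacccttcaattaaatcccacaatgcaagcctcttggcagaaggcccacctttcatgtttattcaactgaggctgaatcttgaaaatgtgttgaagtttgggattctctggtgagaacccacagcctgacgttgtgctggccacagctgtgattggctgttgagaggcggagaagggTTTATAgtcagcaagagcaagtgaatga
Spp1 (chr5:104434861-104435110, plus strand, the first of its listed starts): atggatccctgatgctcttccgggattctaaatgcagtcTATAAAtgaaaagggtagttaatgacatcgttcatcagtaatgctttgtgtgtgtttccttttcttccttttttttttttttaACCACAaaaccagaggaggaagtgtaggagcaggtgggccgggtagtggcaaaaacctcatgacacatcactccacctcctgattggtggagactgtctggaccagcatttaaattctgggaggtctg

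In Col10a1 the capitals mark the letters TATAAA, whose first base lies 32 before the start, and in Ibsp the same letters on the opposite strand, 28 before the start. In Spp1 they mark TATAAA at 211 before the start and the Runx letters TGTGGT on the opposite strand at 128 before it. Entries were listed for 8 of the 10 members, with 14 promoters in all, and Panx3 and Sp7 were not listed. On either strand, TATAAA occurred in 6 of these 14 promoters (Alpl, Col10a1, Ibsp, Mef2c with 2 promoters, and Spp1) and in 12.4% of all 32851 promoters of the same length. TGTGGT occurred in 1 of the 14, that of Spp1, and in 14.0% of all. The AP-1 letters TGANTCA occurred in Phospho1 and in 1 promoter of Mef2c, against 6.75% of all. Neither the NF-kB consensus (3.90% of all promoters) nor the cyclic AMP element TGACGTCA (1.55% of all) was found among the 14. These matches describe letters in a window and not binding.

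**Figure D1:**
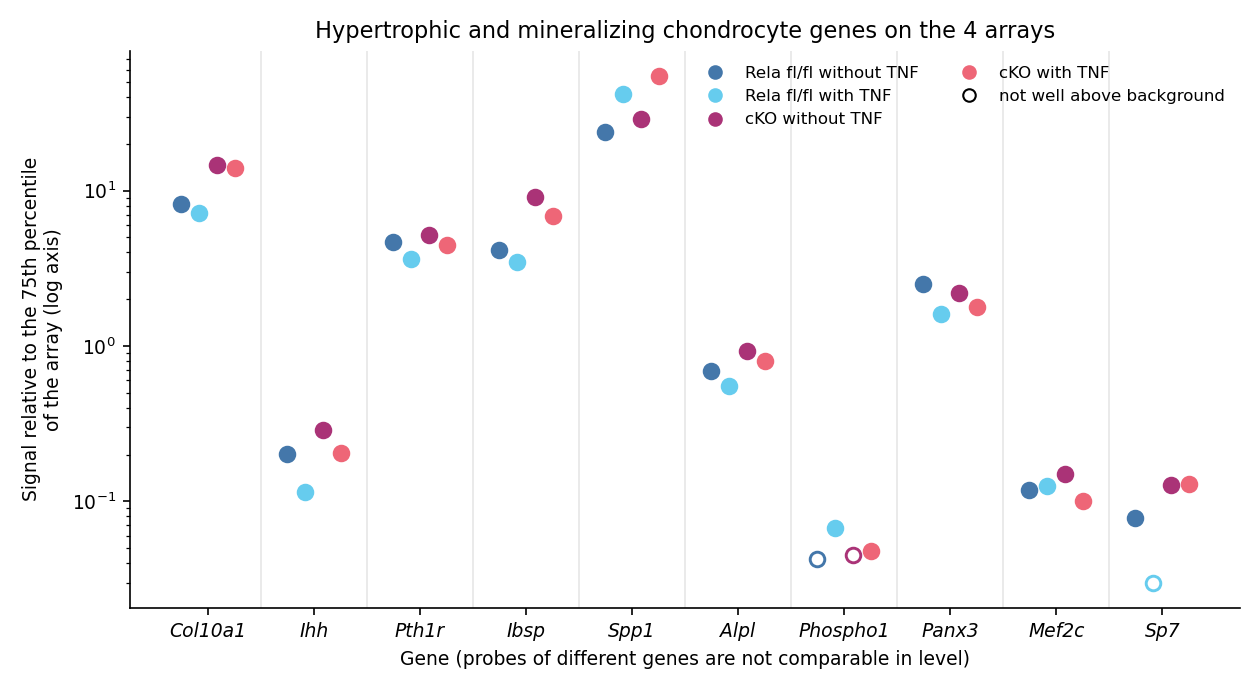
Signal of the 10 genes on the 4 arrays, as processed intensity over the 75th percentile of its array on a log axis, with 1 point per array and open points where the probe was not well above background. Both cKO-labelled arrays lie above both control arrays for Col10a1, Ibsp, Alpl and Sp7 (and for Ihh by only 0.03), and both arrays with TNF lie above both without it for Spp1.

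Col10a1, which encodes type X collagen and defines the hypertrophic zone, was higher on the cKO-labelled arrays. Its signal was 8.19 and 7.23 in control cells without and with TNF, and 14.6 and 14.1 on the corresponding cKO-labelled arrays. Both cKO values lay above both control values, by 0.83 without TNF and 0.97 with TNF, or 1.78-fold and 1.96-fold. The TNF differences were -0.18 in control cells and -0.05 on the cKO-labelled arrays, both within 2 technical spreads (0.19), although the first was -0.21, past them, under quantile normalization and in the authors' value table. Of the genes outside patches, 2.24% were at least as much higher in the genotype comparison without TNF and 1.21% in that with TNF. The stage of the cells in culture was not measured, and more cells of a type and more RNA per cell cannot be told apart.

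The signalling pair of the hypertrophy loop was measured at unequal precision. Ihh, the secreted hedgehog ligand of prehypertrophic cells, was dim, with a signal of 0.201 and 0.114 in control cells without and with TNF and 0.289 and 0.205 on the cKO-labelled arrays. Control with TNF was the low array, and control without TNF and cKO with TNF could not be separated (0.03 apart). The TNF difference was -0.82 in control cells, past 2 technical spreads of a dim probe (0.56), and -0.50 on the cKO-labelled arrays, which was within them as scaled here and past them with no scaling (-0.60) and in the authors' value table (-0.61). The genotype difference was 0.53 without TNF, within 2 spreads (0.57 with no scaling, just past them), and 0.85 with TNF, past them. Under normexp background correction the differences of Ihh past 2 spreads shrank to -0.45 and 0.39. Pth1r, the receptor for PTHrP, had a signal of 4.66 and 3.62 in control cells and 5.18 and 4.49 on the cKO-labelled arrays. Here too control cells with TNF were lowest, with a TNF difference of -0.37, against -0.20 on the cKO-labelled arrays, where 2 spreads were 0.19. The genotype difference of Pth1r was 0.15 without TNF, within 2 spreads (0.20 with no scaling, just past them), and 0.31 with TNF.

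The acidic bone matrix proteins Ibsp (bone sialoprotein) and Spp1 (osteopontin) moved along different axes. Ibsp had a signal of 4.16 and 3.49 in control cells without and with TNF and 9.14 and 6.85 on the cKO-labelled arrays. Its order was cKO without TNF, cKO with TNF, control without TNF and control with TNF, and each step, at 0.42, 0.72 and 0.25, exceeded 2 technical spreads. The genotype difference was 1.13 (2.20-fold) without TNF and 0.97 (1.96-fold) with TNF, a distance that 0.961% and 1.17% of genes outside patches reached. A second probe of the same transcript gave 1.10 and 0.82, with signals of 1.26, 1.08, 2.71 and 1.91 in the same array order as above. Centred on their own means, the log2 values of the Ibsp probes differed by a root mean square of 0.057.

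For Spp1, a secreted phosphoprotein that many activated cells also make, the separation was by treatment. Signal was 24.0 without TNF and 42.1 with it in control cells, and 29.1 and 54.7 on the cKO-labelled arrays. TNF values exceeded untreated values in both genotypes, by 0.81 (1.75-fold) and 0.91 (1.88-fold), distances reached by 0.934% and 0.852% of genes outside patches. The TNF changes in the cKO and control pairs differed by 0.10, less than 2 technical spreads of such a difference (0.26). The genotype differences were 0.28 and 0.38, smaller than those of Ibsp, although the genes neighbour each other on chromosome 5, with Mepe as the 1 protein-coding gene between them in the annotation. Mepe itself, another matrix phosphoprotein of the cluster, stayed between 0.159 and 0.173 on all arrays.

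Of the enzymes that supply phosphate, Alpl was measured well and Phospho1 was not. The signal of Alpl was 0.690 and 0.553 in control cells without and with TNF, and 0.925 and 0.796 on the cKO-labelled arrays. It followed the order of Ibsp, with genotype differences of 0.42 and 0.52 and TNF differences of -0.32 and -0.22, each past 2 technical spreads of 0.19, except that the last was -0.16 under normexp. Phospho1, the phosphatase that acts on phosphocholine inside matrix vesicles, read 0.0424, 0.0671, 0.0454 and 0.0482 in the same array order. It was not well above background on either array without TNF. In control cells its TNF difference is therefore a bound, at least 1.28-fold higher. On the cKO-labelled arrays the dim value was not raised, since it already exceeded the lowest signal well above background there (0.0357). The 1.06-fold difference on them is thus no bound and rests on a dim value. Both TNF differences lie within 2 spreads of a dim probe, although that in control cells was 0.66, past them, with the dim value not raised. On the cKO-labelled arrays no value was left with no scaling, in the authors' value table or under normexp. Under normexp the difference in control cells was 0.08 on the log2 scale. With TNF the genotype difference was -0.48, within 2 spreads of a dim probe, and no genotype difference can be given without TNF.

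Panx3, the channel protein of prehypertrophic chondrocytes and osteoblasts, differed less by genotype than with TNF. Its signal was 2.51 and 1.61 in control cells without and with TNF and 2.21 and 1.77 on the cKO-labelled arrays. Signals with TNF were lower in both genotypes, with differences of -0.65 in control cells and -0.33 on the cKO-labelled arrays. The gap between these changes was 0.32, where 2 technical spreads of such a difference were 0.26; with no scaling between arrays the changes were -0.64 and -0.43, and in the authors' value table -0.68 and -0.44, and the gap fell within these spreads. Genotype differences were -0.18 without TNF and 0.14 with TNF, within 2 technical spreads (0.19), but the former was -0.22 under normexp, past them.

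Both transcription factors were dim. Mef2c, which drives Col10a1 and hypertrophy, had a signal of 0.119 and 0.126 in control cells without and with TNF and 0.150 and 0.100 on the cKO-labelled arrays. No neighbouring pair in its order of levels was further apart than 2 technical spreads; the difference with TNF on the cKO-labelled arrays was -0.59, just past them, and -0.35 under quantile normalization and -0.33 under normexp, within them; the rest lay between -0.34 and 0.33. Sp7 (osterix), needed for the osteoblast lineage and for mineralizing hypertrophic cells, read 0.0780 and 0.0300 in control cells and 0.127 and 0.129 on the cKO-labelled arrays. In control cells with TNF it was not well above background, and the software gave the spot an error of 30.3% there against 11.5% to 18.8% on the other arrays. Against the lowest signal well above background on that array (0.0368), Sp7 was at least 2.12-fold higher in control cells without TNF and at least 3.51-fold higher in cKO with TNF. The TNF difference was 0.02 on the cKO-labelled arrays, and the genotype difference without TNF was 0.70. With the dim value raised to that limit, the TNF changes of the genotypes differed by at least 1.11. This was past 2 technical spreads of such a difference (0.79), but these spreads come from probes well above background on every array, which Sp7 was not. Under normexp background correction the TNF differences of Sp7 were -0.43 in control cells and -0.05 on the cKO-labelled arrays. The gap between them then fell within these spreads. Its genotype differences were 0.31 and 0.70 under normexp, so that no 2-fold difference of Sp7 was left.

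**Figure D2:**
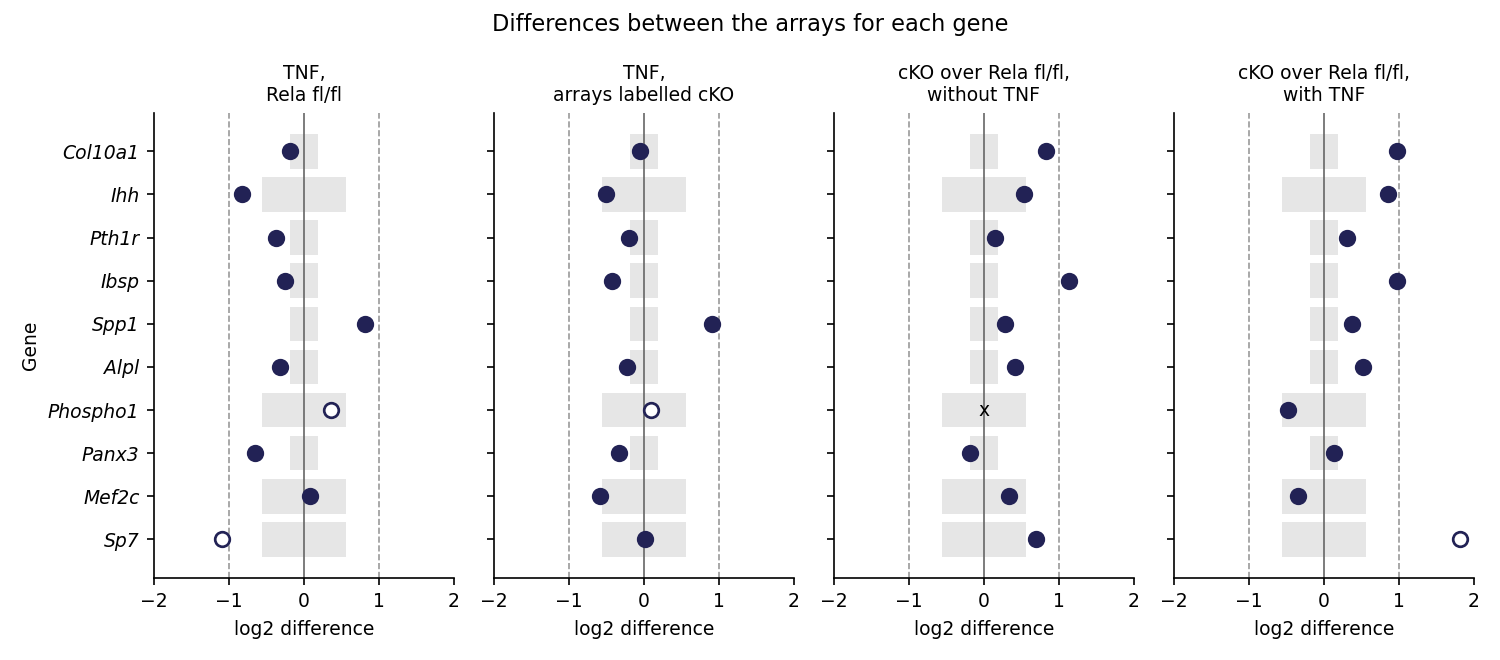
Log2 differences of the 10 genes in the 4 comparisons. Filled points are measured on both arrays, and open points have 1 array not well above background. The x marks Phospho1 with neither array well above background. Grey bars show 2 technical spreads and dashed lines a 2-fold difference. With TNF, Spp1 lies to the right in both genotypes (0.81 and 0.91), and in the genotype panels Col10a1 and Ibsp lie near or past 2-fold.

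Counted at 2-fold, few members were past the limit in any comparison. With TNF in control cells, 0 of 10 were higher and 1 was lower (Sp7, as a bound), where 2.47% of all 22708 genes tested were higher and 4.39% lower. On the cKO-labelled arrays the counts were 0 higher and 0 lower of 10, against 0.765% and 4.29% of 24705 genes. For genotype without TNF, 1 of 9 members was higher (Ibsp) and 0 lower, against 3.67% and 4.31% of 23318 genes. With TNF, 1 of 10 was higher (Sp7, as a bound) and 0 lower, against 1.19% and 3.11% of 24198 genes. Outside patches, where all members but Phospho1 lay, the shares of genes higher and lower were 0.613% and 0.743% for TNF in control cells and 0.652% and 1.63% on the cKO-labelled arrays. By genotype they were 1.37% and 0.859% without TNF and 1.06% and 0.982% with TNF.

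At a limit of 1.5-fold, every member past it by genotype was higher on the cKO-labelled arrays, whereas those past it with TNF lay on both sides. Without TNF, 3 of 9 were higher on the cKO-labelled array (Col10a1, Ibsp and Sp7) and 0 lower, where 7.46% of all genes were higher and 6.70% lower. With TNF, 4 of 10 were higher (Col10a1, Ihh, Ibsp and Sp7) and 0 lower, against 4.58% and 5.65%. In control cells with TNF, 1 was higher (Spp1) and 3 lower (Ihh, Panx3 and Sp7), against 4.50% and 6.65%. Under normexp, Ihh (-0.45) and Sp7 (-0.43) fell within the limit in that comparison. By genotype, Sp7 without TNF (0.31) and Ihh with TNF (0.39) fell within it too. On the cKO-labelled arrays, 1 was higher with TNF (Spp1) and 1 lower (Mef2c, which was within the limit under quantile normalization and normexp), against 2.51% and 8.22%. Outside patches, the shares of genes higher and lower by genotype were 5.13% and 2.88% without TNF and 4.58% and 3.11% with TNF. For TNF they were 2.26% and 2.70% in control cells and 2.48% and 5.24% on the cKO-labelled arrays.

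Most members leaned the same way within each kind of comparison, by less than 2-fold. The median over the members was 0.42 for genotype without TNF and 0.45 with TNF, where the median over all genes was 0.02 and 0.06, and 8 of 9 and 8 of 10 members were above 0, as were 53.6% and 61.4% of all genes. For TNF the median was -0.29 in control cells and -0.21 on the cKO-labelled arrays, against 0.01 and 0.06 over all genes, and 3 of 10 were above 0 in each, as were 53.4% and 60.4% of all genes. On the cKO-labelled arrays the sign of Sp7 with TNF depended on the processing, at -0.05 under normexp and 0.27 under quantile normalization. With no scaling between arrays the median was -0.32 over the members and -0.05 over all genes, and Sp7 read -0.08. Phospho1 then gave no value, and Spp1 was the 1 member above 0.

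Members differed from one another in how they ran across the arrays. Among the 8 genes well above background throughout, the closest pair was Pth1r and Alpl, whose centred log2 values differed by a root mean square of 0.122, followed by Col10a1 and Ibsp at 0.154. Ibsp and Spp1 differed by 0.701. Outside the list, the same measure over 9660 named genes and 4 arrays placed Plin4 (0.021) nearest to Ibsp, then AI661453 (0.074) and Diras2 (0.085). For Col10a1 the nearest were Eif2s3x (0.045), Cuedc1 (0.048) and H2-DMb1 (0.063). Eif2s3x is the X-linked counterpart of Eif2s3y and a probe can read both; it was 0.93 and 1.03 higher on the cKO-labelled arrays, so the level of Col10a1 ran in parallel with a sex-linked gene here, and the part of sex was not tested. The nearest to Spp1 were Irf5 (0.065), AA467197 (0.075) and Il4ra (0.076), and to Ihh 8430436N08Rik (0.062), Peg10 (0.094) and Kitl (0.098). With 4 arrays, such likeness is a description of these cultures.

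**Figure D3:**
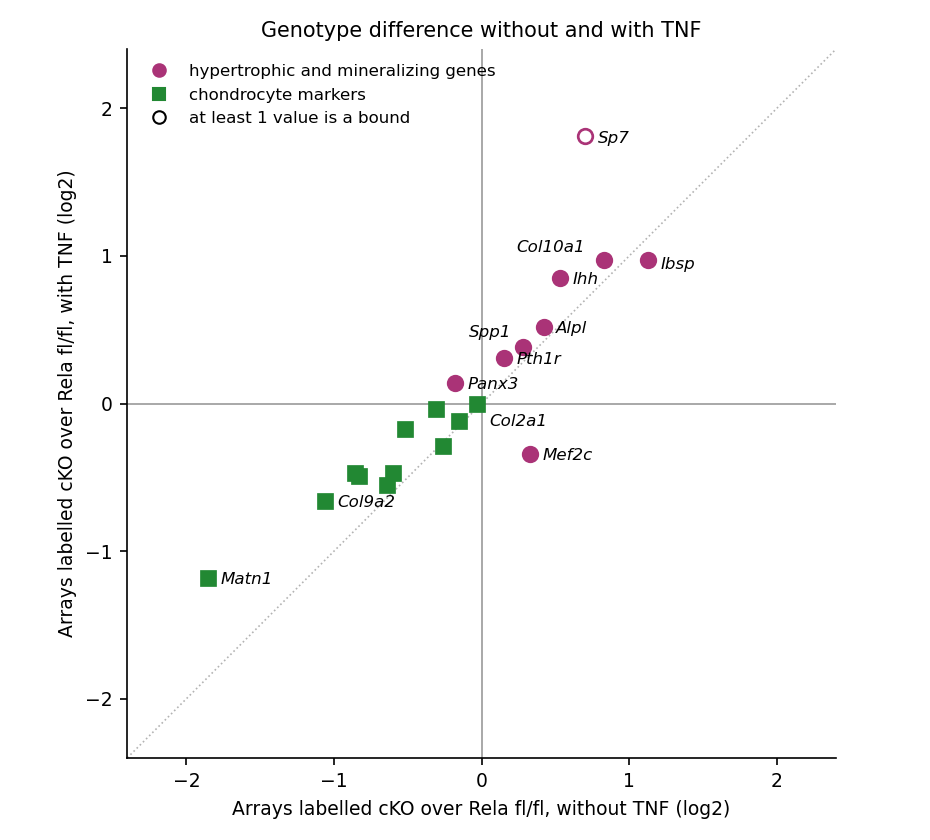
Genotype difference (cKO-labelled arrays over control, log2) without TNF on the x axis and with TNF on the y axis, for 9 of the members (circles) and 11 chondrocyte markers (squares); Phospho1 has no value without TNF, and the open circle is a bound. Ibsp (1.13 and 0.97) and Col10a1 (0.83 and 0.97) lie in the upper right, and Matn1 (-1.85 and -1.18) in the lower left.

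General cartilage markers lay on the other side of 0 from most members. All 11 were well above background on every array, and their genotype median was -0.60 without TNF (11 of 11 below 0) and -0.47 with TNF (10 of 11 below). Matn1, a matrilin of resting and proliferating cartilage, differed by -1.85 without TNF and -1.18 with TNF, and Col9a2, a chain of type IX collagen, differed by -1.06 without TNF. Col2a1, the main cartilage collagen, differed by -0.03 and 0.00. The summed signal of the 11 markers was 1591 and 1513 on the control arrays and 1255 and 1286 on those labelled cKO, while the members summed to 44.6 and 58.9 against 61.8 and 83.2, of which Spp1 alone gave 24.0 and 42.1 against 29.1 and 54.7.

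Markers of other cells were read beside the members because Ibsp, Spp1, Alpl and Sp7 are also osteoblast genes. Of the osteoblast and osteocyte markers, Dmp1, Phex and Sost were not well above background on any array, Col1a1, Bglap2 and Mepe were on all of them, and Bglap had no matched probe. The summed signal of the list was between 163 and 169 on the 4 arrays, nearly all of it from Col1a1 (161 to 167), which fibroblasts also express, and the genotype differences of Col1a1, Bglap2 and Mepe were between 0.02 and 0.05 without TNF and between 0.00 and 0.50 with TNF. Fibroblast markers were all measured and summed to 360 and 416 on the control arrays against 278 and 333 on those labelled cKO. Their genotype medians were -0.41 and -0.39 (6 of 6 below 0 in each), and Thy1 was the 1 marker past 2-fold, at -1.59 without TNF. Among the macrophage markers, Ptprc was not well above background on any array, Cd68 had no matched probe, Adgre1 lay in a patch on the cKO-labelled array without TNF (there 2.87 higher than in control cells), and 4 of 5 were well above background on all arrays. Their sum, between 35.5 and 44.2, came mostly from 1 probe of Itgam (31.8 to 40.3), whose other probes differed from it: one gave -2.93 with TNF in control cells, from a spot in a patch, and another was dim there. A second probe of Adgre1 was not well above background in any comparison. The median TNF difference of the macrophage markers was -0.10 in control cells (1 of 4 above 0) and -0.13 on the cKO-labelled arrays (2 of 4). Cd14, a lipopolysaccharide co-receptor, was higher with TNF in both (0.54 and 0.46), whereas Csf1r differed by -0.10 and 0.08 (other probes by -0.23 and 0.22 and by 0.20 and -0.14) and Itgam by -0.11 and -0.34. Among the osteoclast markers, 3 of 5 were well above background on all arrays, while Calcr and Dcstamp were on none. The sum of the list, between 40.9 and 48.1, came mostly from Ctsk (35.6 to 42.2). The median TNF difference of the 3 was -0.03 in control cells (1 above 0) and 0.16 on the cKO-labelled arrays (2 above 0). Their median genotype difference was 0.13 without TNF (2 above 0) and 0.19 with TNF (3 above 0). The part of these cells in the signal of Spp1, which macrophages and osteoclasts also make, was not tested.

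In the PTHrP and hedgehog list around Ihh and Pth1r, no gene passed 2-fold in any of the 4 comparisons. Of its 13 genes, 10 were well above background on all arrays, and Pthlh (which encodes PTHrP) and Hhip were on none. At 1.5-fold, Gli1 was lower with TNF in control cells, and by genotype with TNF the hedgehog co-receptor Gas1 (-0.62; its other probes gave -0.20 and -0.92) and the transcription factor Gli2 (-0.60) were lower. Gli1, a transcriptional target of hedgehog signalling, read 0.173 and 0.0928 in control cells without and with TNF and 0.140 and 0.0972 on the cKO-labelled arrays. Both Gli1 and Gli2 were dim, where 2 technical spreads were 0.56. The TNF difference of Gli1 was -0.90 in control cells, past them, while its TNF difference on the cKO-labelled arrays (-0.52) and its genotype differences (-0.31 and 0.07) lay within them. Ptch1, the receptor that hedgehog signalling also induces, was dim as well and differed by -0.28 and -0.14 with TNF, within these spreads.

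Among 20 transcriptional regulators of hypertrophy, 2 were past 2-fold, each on a probe whose spot lay in a patch (control without TNF). Foxa2 was -1.81 with TNF in control cells and -2.21 by genotype without TNF, and Sox6 was -1.14 and -1.11. A second probe of Foxa2, with no spot in a patch, gave -0.88 and -1.19. With TNF, their genotype differences were -0.10 and -0.34. Runx2, the main driver of hypertrophy, was dim, at 0.0650 (not well above background) and 0.0612 in control cells and 0.0990 and 0.0849 on the cKO-labelled arrays. Its genotype difference was 0.61 without TNF, from a control value not well above background, and 0.47 with TNF. Another probe of it gave 0.22 and 0.15.

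No mineral or phosphate gene outside the list was past 2-fold by genotype without TNF. Of 19 on the array, 14 were well above background throughout, with a median genotype difference of 0.02 without TNF and 0.28 with TNF. At 1.5-fold, 2 were lower by genotype without TNF and 0 higher: Smpd3, a sphingomyelinase needed for mineralization (-0.98), and Mgp, an inhibitor of calcification (-0.71), each with its spot in a patch on 1 of these arrays. Slc20a1, the sodium-dependent phosphate transporter, was past 2-fold with TNF on the cKO-labelled arrays (19.0 without and 38.1 with TNF, a difference of 1.01) and was 0.45 higher with TNF in control cells. A second probe of it gave 0.51 and 0.12 for the same comparisons. Ank, which exports pyrophosphate, was 1.21 higher by genotype with TNF, but its spot lay in a patch on that array.

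Mmp13, the collagenase of the hypertrophic zone, ran differently from the members, in a list of 7 genes of matrix remodelling. It read 6.05 in control cells without TNF, 12.9 with TNF, and 12.4 and 11.5 on the cKO-labelled arrays without and with TNF. The control array without TNF was thus the single low one, with a TNF difference of 1.09 there and -0.11 on the cKO-labelled arrays, and a genotype difference of 1.04 without TNF and -0.16 with TNF. Col10a1 and Ibsp were also higher on the cKO-labelled array without TNF, but unlike Mmp13 they stayed apart by genotype with TNF. No other gene of this list passed 2-fold. By genotype, Cd200 (-0.87 without and -0.54 with TNF; its spot lay in a patch on the control array without TNF) and Scin (-0.60 and -0.58) were lower on the cKO-labelled arrays, and the median of the 6 genes measured was -0.14 without TNF and -0.32 with TNF (5 of 6 below 0). Vegfa, the angiogenic factor of hypertrophic cartilage, was 0.64 and 0.30 higher with TNF on one probe and 0.54 and 0.56 on another, and Mmp9 was not well above background on any array.

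**Figure D4:**
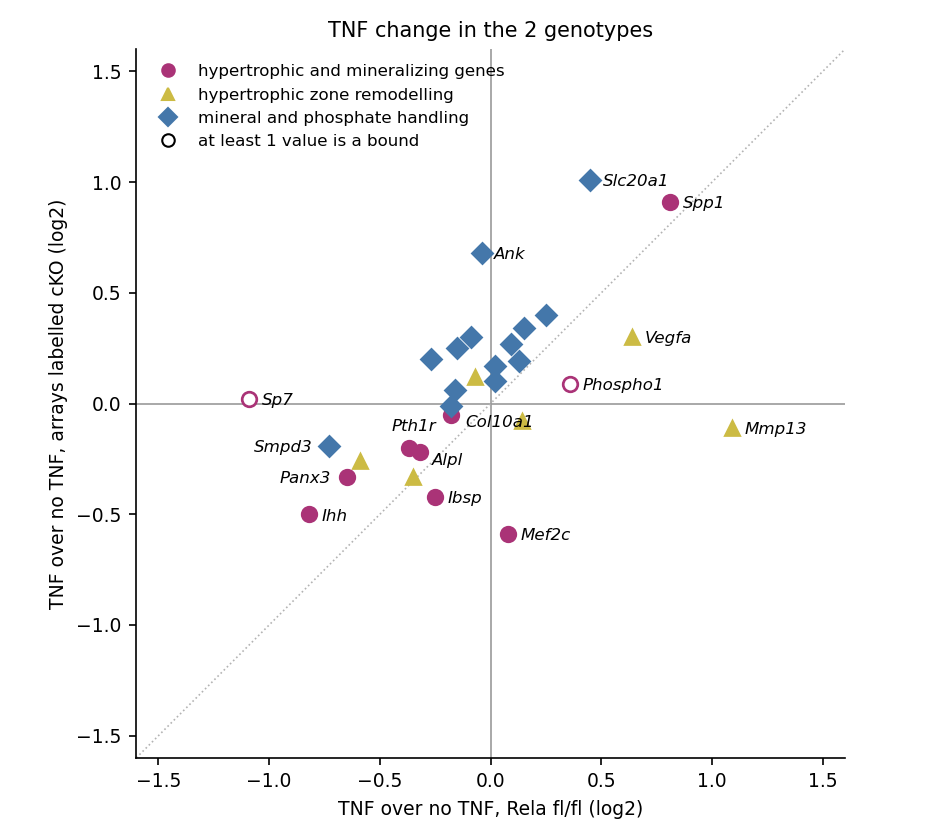
Log2 difference with TNF in control cells (x axis) and on the cKO-labelled arrays (y axis) for the 10 genes (circles), 6 genes of hypertrophic zone remodelling (triangles) and 14 of mineral and phosphate handling (diamonds), with bounds as open symbols and the dotted line at equal change. Spp1 lies near the line at 0.81 and 0.91, Mmp13 lies to the right at 1.09 and -0.11, and Sp7 to the left at -1.09 and 0.02.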

How the data were processed

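The authors deposited, per array, the intensity of each spot from Agilent Feature Extraction 10.10.1.1 (version per the submitters' processing notes), which subtracts background and flags outliers and spots well above background, on 1-colour arrays. A deposited table of scaled intensity equals these values multiplied by a factor constant within an array (1.77 to 1.83), whose basis is not stated. Here, outlier spots were dropped, repeated spots averaged, log2 values taken relative to the 75th percentile of 59305 transcript spots, and the probe with the highest mean stood for a gene. Of 20809 NM accessions, 20435 were matched to RefSeq symbols (GRCm38.p6). The array files name mm9. A difference was taken where the brighter array was well above background, with a dimmer value not well above it raised to the lowest signal that was. Patches are spots with 3 or more bright neighbours within 5 rows and 2 columns, where bright means 2-fold above each of the other 3 arrays.

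The members, lists, markers and the rule on patches were chosen with earlier results of these data known. From each list at most 4 genes past 2-fold per comparison were named by rule; Gli1, Gli2, Gas1, Ptch1, Runx2, Vegfa, Cd200, Scin, Cd14, Csf1r, Itgam, Ctsk, Mepe, Bglap2, Col1a1, Mmp9, Smpd3, Mgp and Col2a1 were named for their role after their values were seen. Genes most like a member were the 3 nearest, for members outside patches and well above background on all 4 arrays, spanning a log2 of at least 1. Some members of the lists are counted but not reported by name here. Counting was tested on simulated data for TNF in control cells. Changes were planted in brighter genes only, so their recovery in dim genes such as Sp7 was not tested. Alternatives in scaling, background (limma 3.58.1, R 4.3.3), filter, probe and limit were run (Python 3.11.15, numpy 2.4.6, pandas 2.3.3).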

Additional observations from a re-analysis of the deposited data

Results flagged for a closer look

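The TNF difference had opposite signs in the genotypes for 14 of 36 members and list genes named in the text, where 44.6% of all 21722 genes with both values did so; with 1 array per condition, the difference between genotypes was not tested. Both values were past 2 technical spreads for 5 of the 14: Bglap2, Foxa2, Gas1, Matn1 and Thy1. Among the members, Sp7 differed by at most -1.09 in control cells, where its value with TNF was not well above background, and by 0.02 on the cKO-labelled arrays, a value that fell below 0 under 3 settings. Mef2c differed by 0.08 and -0.59, where 2 technical spreads of a dim probe were 0.56. Mmp13, the hypertrophic collagenase, differed by 1.09 and -0.11, with 2 spreads of a bright probe at 0.19. Matn1, a cartilage matrilin, differed by -0.29 and 0.38, and Thy1, a fibroblast marker, by -0.69 and 0.63. Bglap2 differed by -0.27 and 0.20, Gas1 by 0.26 and -0.27 (other probes by -0.01 and -0.05 and by 0.13 and -0.51), Gli2 by 0.36 and -0.24, Csf1r by -0.10 and 0.08, Mgp by -0.15 and 0.25 and Col1a1 by 0.02 and -0.04. Foxa2 differed by -1.81 and 0.30 (a second probe, outside patches, by -0.88 and 0.32), Ank by -0.04 and 0.68, and Col9a2 by -0.23 and 0.17. Foxa2, Ank, Col9a2, Bglap2, Gli2 and Mgp each had a spot in a patch on 1 of the arrays.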

How the results depend on the processing

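Of 302 values of the members under alternative processing, 278 stayed within the technical spread of a difference, and 24 moved further. Not all of these values could move. For a member with 1 probe, outside patches and well above background on both arrays, the filter, probe-averaging and patch settings left its value unchanged by construction. Of the 302 values, 16 lay on the other side of 2 technical spreads (9 newly past them, 7 newly within). The sign changed for 3, all of Sp7 with TNF on the cKO-labelled arrays: 0.02 became -0.08 with no scaling, -0.09 in the authors' value table and -0.05 under normexp. Counts of members were the most dependent on the limit: at 1.5-fold they were 1 higher and 3 lower for TNF in control cells, 1 and 1 on the cKO-labelled arrays, and 3 and 4 higher by genotype without and with TNF. At 3-fold, 0 were lower with TNF in control cells and 0 higher by genotype without TNF, while 1 stayed higher by genotype with TNF. The 1 lower with TNF in control cells (Sp7) became 0 under quantile normalization (where Sp7 was -0.92), under normexp background correction with an offset of 50, and when a value above background was required on each array; the 1 higher by genotype with TNF (also Sp7) became 0 under the latter 2. The cause was not tested, except that a dim signal of Sp7 removes it from the last setting by construction. The median for TNF on the cKO-labelled arrays moved from -0.21 to -0.33 in the authors' value table and to -0.32 with no scaling. That for genotype without TNF moved from 0.42 to 0.30 under normexp. Under normexp, the genotype difference of Sp7 was 0.31 without TNF and 0.70 with TNF, and that of Ihh with TNF was 0.39. The median difference between the TNF changes (cKO minus control), chosen after seeing the data, was 0.12, and it was 0.02 with no scaling, 0.06 in the authors' value table and 0.10 to 0.13 under the other settings. Signal over background limits Phospho1, Sp7, Mef2c and Ihh. No paired analysis was possible because, with 1 array per condition, no replicate number could serve as a block; an additive fit of both factors, with 1 degree of freedom left, was not run.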
